A study of Mus musculus with 21 samples.

Results

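The sarcomeric myosin heavy chains were followed across 21 single mouse myofibers, each hybridized to its own microarray. All probes named Myh1, Myh2, Myh3, Myh4, Myh6, Myh7, Myh7b, Myh8 or Myh13 on the array were taken, which gave 14 probes of 9 genes (of 35527 gene names) among 55681 probes. After a filter on dim probes 13 of the 14 were tested, together with 46945 other probes. The probe left out was Myh8 A_51_P239800, which was not well above background in any myofiber.

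The myofibers came from CD1 mice of 3 months, for which the labels give no treatment. They formed a group of 11 type 1 myofibers from the soleus of 6 mice and a group of 10 type 2B myofibers from the extensor digitorum longus (EDL) of 6 mice, with 9 mice in all and 3 that gave both types. A myofiber name gives the muscle (S or E), the myofiber number and, after the dot, the mouse. Type had been set by the authors from the myosin protein in a piece of each myofiber, and the RNA of the rest was amplified before labelling. Type and muscle cannot be told apart here, because each type came from a single muscle. The labels call the mice male, whereas the methods call them female.

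Myosin heavy chains are the motor proteins of the thick filament, and the isoform present largely sets how fast a myofiber contracts. Adult mouse limb muscle uses Myh7 (slow, type 1), Myh2 (type 2A), Myh1 (type 2X) and Myh4 (type 2B). Myh3 (embryonic) and Myh8 (perinatal) belong to developing and regenerating muscle, Myh6 is the alpha isoform of the heart, Myh13 is known from extraocular and laryngeal muscle, and Myh7b is an ancient isoform with a microRNA in an intron. The fast and developmental genes lie side by side, whereas Myh6 and Myh7 form a pair of their own.

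In RefSeq (GRCm38.p6) Myh3, Myh2, Myh1, Myh4, Myh8 and Myh13 followed each other on chromosome 11 between 67078273 and 67371587, Myh6 and Myh7 were neighbours on chromosome 14 between 54941921 and 54994626, and Myh7b lay on chromosome 2 between 155611243 and 155634307. The promoter windows of RefSeq (250 bases before to 50 after the start site) held a run of 14 bases common to Myh1, Myh2, Myh4 and Myh8. Of 32851 promoter windows, 4 held that run on either strand (0.0122%), and they were those of the same 4 genes. It was found by comparing these windows with each other, so its rarity is a description. The windows are shown from 30 bases before the run, on the plus strand of GRCm38.p6, with the run in capitals.
Myh2, chr11:67170872-67170975: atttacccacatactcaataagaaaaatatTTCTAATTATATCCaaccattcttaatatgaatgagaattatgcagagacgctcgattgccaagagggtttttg
Myh1, chr11:67199912-67200015: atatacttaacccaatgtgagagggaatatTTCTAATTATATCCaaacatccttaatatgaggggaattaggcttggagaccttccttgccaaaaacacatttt
Myh4, chr11:67237624-67237727: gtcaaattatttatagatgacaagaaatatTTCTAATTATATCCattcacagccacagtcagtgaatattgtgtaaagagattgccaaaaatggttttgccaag
Myh8, chr11:67277040-67277123: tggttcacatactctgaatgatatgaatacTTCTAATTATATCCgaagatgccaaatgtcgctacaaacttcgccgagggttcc
Counted from the start site, the run began at -125 in Myh2, -160 in Myh1, -158 in Myh4 and -54 in Myh8. It was not in the windows of Myh3 and Myh13 in the same cluster. The 4 genes that shared it did not share a pattern of signal between the types, as their values below show.

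Of the 9 genes 4 hold a microRNA gene in RefSeq, which places Mir208b within Myh7, Mir208a within Myh6, Mir499 within Myh7b and Mir6923 within Myh3. A mature form of each is shown with the seed, bases 2 to 8, in capitals, because the 4 host genes were all higher in type 1.
mmu-miR-208b-3p (in Myh7): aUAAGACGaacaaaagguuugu
mmu-miR-208a-3p (in Myh6): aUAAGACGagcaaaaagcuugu
mmu-miR-499-5p (in Myh7b): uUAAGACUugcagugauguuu
mmu-miR-6923-5p (in Myh3): gUGAGGGCaggaggauuggggugu
The seeds of miR-208a-3p and miR-208b-3p were the same, miR-499-5p shared their first 6 bases, and miR-6923-5p had another seed. The microRNAs themselves were not analysed here.

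Arrays differed in brightness. The 8 arrays of slide 1 (4 of each type) had a 75th percentile of 335 to 520 scanner units, and the 13 others had 52.8 to 180. The share of spots well above background, a flag set by the scanner software, was 41.2% to 79.8% in type 1 and 38.7% to 74.6% in type 2B myofibers. Levels below are log2 of the quantile-normalized spot intensity, differences are type 2B minus type 1 from a limma fit with the mouse as a random block, and errors are the SD over mouse means unless named. S15.2 had no usable spot for 1 probe each of Myh2, Myh6 and Myh8. In the authors' value table of long non-coding probes, the columns of E13.3 and E12.5 followed each other's scanner output, which leaves the type of both unchanged and their mouse uncertain.

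Myofiber S6.4 stood apart from the other type 1 myofibers also on lists of contractile genes without the heavy chains. The summed signal of 11 probes for slow contractile genes was 190012 in S6.4 against 424750 to 685908 in the other type 1 myofibers. The summed signal of 17 probes for fast contractile genes was 582978 in S6.4 against 100001 to 224132. The type 2B myofibers had 2625 to 6466 and 764992 to 1169460 on the same lists. Single probes of these lists were split in S6.4. Myl3 (16.29), Pvalb A_55_P2059040 (2.75) and Actn3 (4.47) lay far from type 2B, where Myl3 was 6.59 at the highest and Pvalb and Actn3 14.59 and 14.51 at the lowest. Tnnt3 A_51_P345699 (16.31) lay within the type 2B range of 16.19 to 17.13. Results that rest on S6.4 are given with and without it.

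Of the 13 tested probes 6 were higher in type 1 and 1 was higher in type 2B at a Bonferroni adjusted p of 0.05 (limma). Among all 46958 probes tested the shares were 0.82% and 0.611%, or 1.43% in either direction. With Benjamini-Hochberg adjustment 7 member probes were higher in type 1 and 3 in type 2B, against 4.09% and 3.48% of all probes (7.56% in either direction). The type 1 range was wholly above the type 2B range for 4 member probes (0.707% of all probes) and wholly below it for 1 (0.63%). Without S6.4 the first of these counts was 6 (0.875% of all probes). The median difference of the 13 probes was -4.99, beside 0.03 over all probes. Because type had been set from the myosin protein, a difference in Myh7 and Myh4 was built into the groups. Counts that include their probes are therefore a description.

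**Figure D1:**
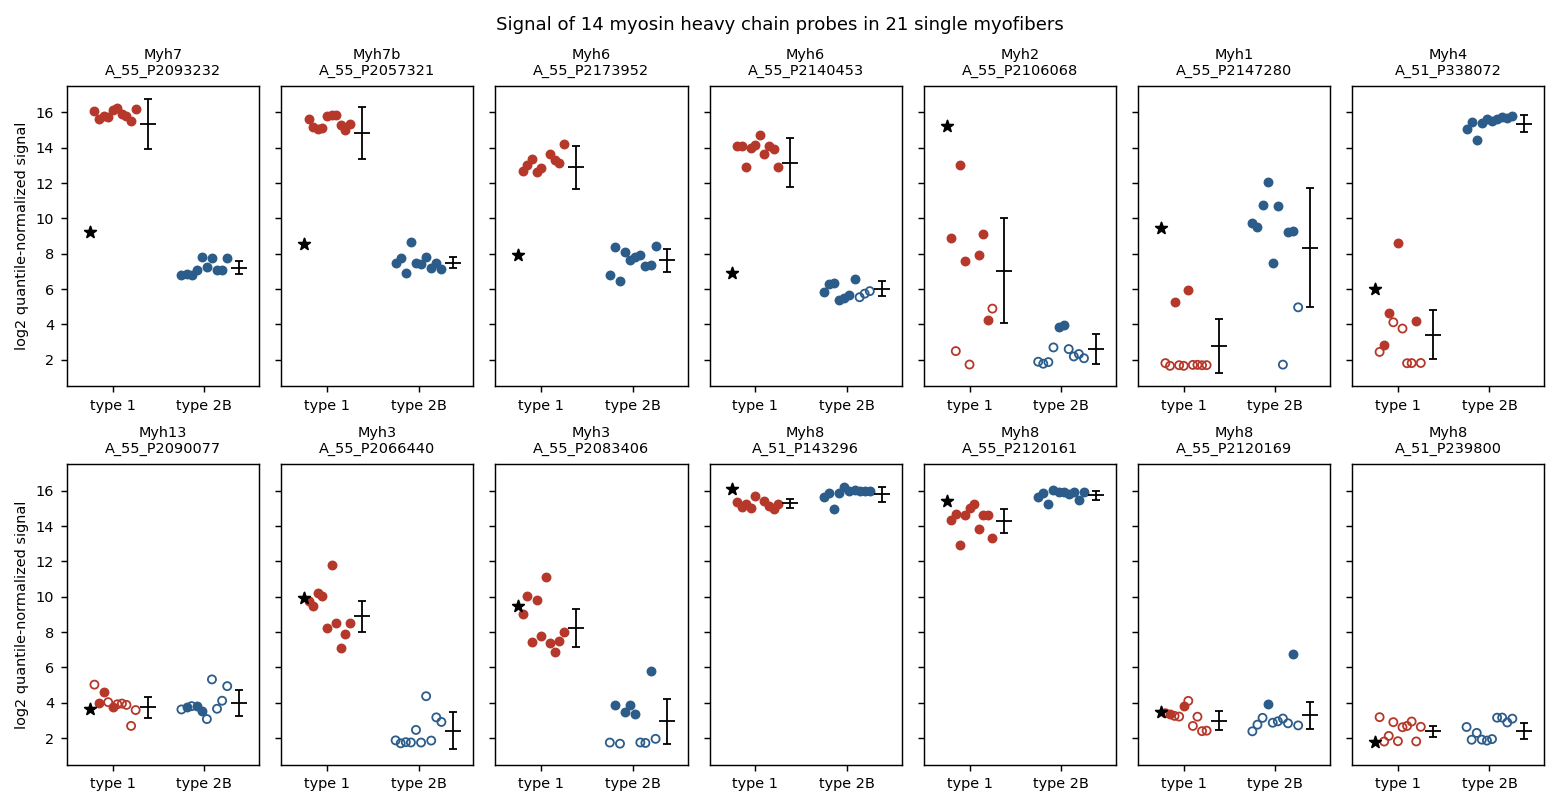
Log2 quantile-normalized signal (vertical axis) of each of the 14 myosin heavy chain probes in 11 type 1 (red) and 10 type 2B (blue) myofibers. Filled points were well above background, open points were not, the star is S6.4, and the bar is the mean ± SD over 6 mice. Myh7, Myh7b, Myh6 and Myh3 were higher in type 1, Myh4 was higher in type 2B, and of the 4 Myh8 probes 2 were bright in every myofiber with a usable spot.

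Myh7, the slow beta isoform, was 9.22 at its lowest, 15.82 at the median and 16.28 at its highest in type 1 myofibers. The lowest value was S6.4 and the next was 15.53. In type 2B myofibers Myh7 was 6.78 at the lowest, 7.09 at the median and 7.84 at the highest, and well above background in all 10. The groups did not overlap, and the difference was -8.07 (SE 0.62, Bonferroni adjusted p = 2.19e-07, limma). Since the groups were formed by myosin protein, this difference describes the grouping and is no separate support for it. Without S6.4 it was -8.68 (SE 0.19), since the SD over the other type 1 myofibers was 0.25. The exact permutation test over mouse means (15.34 ± 1.40 and 7.21 ± 0.37, n = 6 each, two-sided) gave p = 0.00216, the smallest that 924 groupings allow. It treated the means as separate, although 3 mice gave a mean to both types.

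The probe that lies directly next to the Myh7 probe on the array's map of chromosome 14 carries the name LOC674761. The Myh7 probe covers 55589581 to 55589640 and the LOC674761 probe 55589521 to 55589580, both on the minus strand, in a build that the files do not name and that is not GRCm38. LOC674761 was 8.53 in S6.4 and 15.07 to 15.92 in the other type 1 myofibers, but 1.81 to 4.35 in type 2B, where 1 of 10 was well above background. Its difference was -11.92 (SE 0.69), larger in size than that of the Myh7 probe, whose type 2B level lay above background throughout. In type 2B myofibers the Myh7 probe was thus above background in 10 of 10 and its neighbour in 1 of 10.

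Myh7b, the ancient isoform, was 8.56 at the lowest, 15.27 at the median and 15.87 at the highest in type 1. It was 6.91, 7.48 and 8.68 in type 2B, so S6.4 lay below the highest type 2B myofiber, E8.3, and the other 10 type 1 myofibers lay at 14.98 or higher. The difference was -7.25 (SE 0.63, Bonferroni adjusted p = 3.37e-06, limma) and -7.88 (SE 0.22) without S6.4. The Myh7b signal therefore followed that of Myh7 in which myofibers were high and which was low. Whether the Myh7b probe also bound RNA of Myh7 or other myosin genes was not tested.

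Myh6, the alpha isoform of the heart, was measured by 2 probes at opposite ends of the gene. The probe A_55_P2140453, nearer the start of the gene, was 6.91 in S6.4 and 12.90 to 14.73 in the other type 1 myofibers. In type 2B it was 5.39 at the lowest, 5.79 at the median and 6.55 at the highest, with 7 of 10 well above background. The difference was -7.37 (SE 0.65, Bonferroni adjusted p = 3.87e-06, limma) and -8.00 (SE 0.24) without S6.4. The probe A_55_P2173952, at the end of the gene, was 7.94 in S6.4 and 12.65 or higher in the other 9 type 1 myofibers with a usable spot, against 6.45 to 8.41 in type 2B. Its difference was -5.05 (SE 0.55, Bonferroni adjusted p = 2.90e-04, limma) and -5.58 (SE 0.28) without S6.4, so both probes were higher in type 1. Without mouse 3, which supplied 7 of the 21 myofibers, neither probe passed (Bonferroni adjusted p = 0.0696 for A_55_P2140453 and 0.880 for A_55_P2173952, limma). Whether the Myh6 probes also bound RNA of other myosin genes was not tested.

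The D830015G02Rik probe, on the opposite strand near Myh7 (RefSeq: Mhrt), was 7.83 at the lowest, 9.91 at the median and 11.76 at the highest in type 1, against a lowest value of 5.82 and a median of 7.85 in type 2B. The ranges overlapped, and the difference of -1.73 (SE 0.50) passed Benjamini-Hochberg adjustment (p = 0.0383, limma) but not Bonferroni. S6.4 had the lowest of the type 1 values. Trpc4ap, next to Myh7b on the array's map, differed by 0.07 (SE 0.20).

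Myh4, the fast type 2B isoform, was 14.42 at the lowest, 15.58 at the median and 15.81 at the highest in type 2B myofibers. In type 1 it was 1.80, 3.76 and 8.61, and 5 of 11 were well above background. The highest of these was S7.3 (8.61), followed by S6.4 (6.0), S16.3 (4.64), S5.9 (4.22) and S7.2 (2.84). The ranges did not overlap, with a difference of 11.63 (SE 0.63, Bonferroni adjusted p = 1.77e-10, limma). As for Myh7, grouping by myosin protein built this difference in. Of the 5 type 1 myofibers with Myh4 above background 4 lay on slide 1, the brightest slide, which held 4 type 1 myofibers. The part of array brightness in that count was not tested.

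Myh1, the type 2X isoform, separated the type 2B myofibers among themselves. It was 7.47 to 12.04 in 8 of them, 4.97 in E15.3 and 1.72 in E7.7, and neither of the last was well above background. In type 1 it was above background in S6.4 (9.48), S15.2 (5.97) and S16.3 (5.26) and at 1.65 to 1.81 in the 8 others. The groups overlapped, and the difference of 5.42 (SE 1.15) passed Benjamini-Hochberg adjustment (p = 0.00296, limma) but not Bonferroni. Over mouse means the exact permutation test (2.78 ± 1.52 and 8.35 ± 3.38, n = 6 each, two-sided) gave p = 0.00866, again without pairing the 3 mice that gave both types. The size of the difference depended on the treatment of dim spots, being 2.96 with a normexp background correction and, with spots lacking the positive-and-significant flag set to missing, 2.03 (adjusted p = 0.658). Without mouse 3 it did not pass (5.04, adjusted p = 0.0683).

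Myh2, the type 2A isoform, was the most variable member in type 1 myofibers, with an SD of 4.36 over 10 myofibers and 3.62 without S6.4. It was 15.22 in S6.4, 13.03 in S16.3, 7.61 to 9.14 in S14.2, S10.8, S11.3 and S9.4, and 1.73 to 4.89 in the other 4 with a usable spot. Of the 10, 7 were well above background. In type 2B it was 1.77 to 3.99, and 2 of 10 (E9.5 and E9.6) were above background, both on slide 1. The difference of -4.99 (SE 1.28) passed Benjamini-Hochberg adjustment (p = 0.0159, limma) and not Bonferroni, and it was -4.12 (SE 1.07, adjusted p = 0.0182) without S6.4. With normexp background correction it was -2.76 and with dim spots set to the floor -2.95, and neither passed (adjusted p = 0.0879 and 0.228). Nor did it pass with slide as a block (-4.28, adjusted p = 0.113), mouse as a fixed block (-6.20, 0.0901), 75th percentile scaling (-4.15, 0.0555) or the methods' t-test (adjusted p = 0.0703), with spots lacking the positive-and-significant flag set to missing (-4.14, 0.392), without mouse 3 (-4.62, 0.112), or without mouse 4, the mouse of S6.4 (-3.73, 0.0646).

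**Figure D2:**
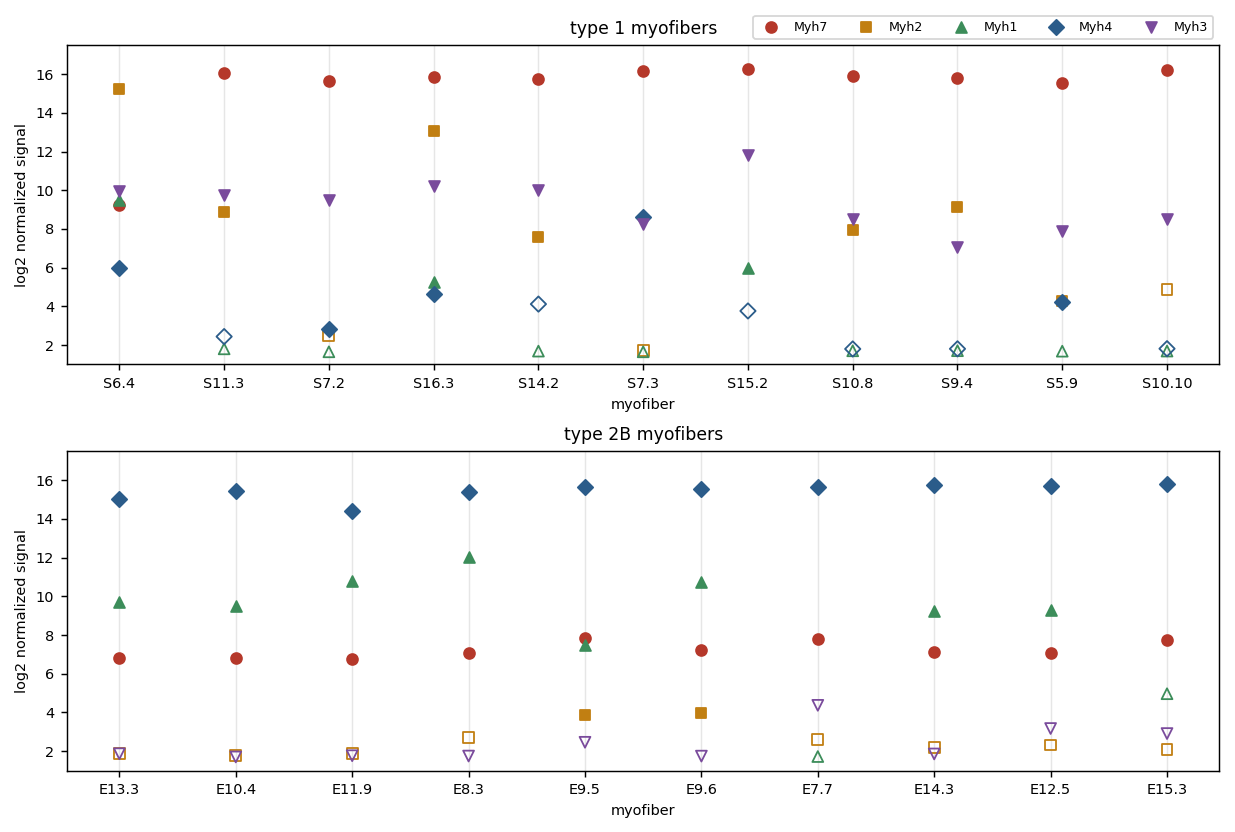
Log2 normalized signal (vertical axis) of Myh7, Myh2, Myh1, Myh4 and Myh3 (probe A_55_P2066440) in each myofiber (horizontal axis), type 1 above and type 2B below. Filled symbols were well above background. S6.4 has the lowest Myh7 (9.22) and the highest Myh2 (15.22) of the type 1 myofibers, and E7.7 and E15.3 had no Myh1 above background.

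Read myofiber by myofiber, a single adult isoform flagged well above background was the exception, though several of the flagged signals were dim. Of the 11 type 1 myofibers, 1 (S10.10) had Myh7 alone among the 4 adult genes, 4 had Myh7 with Myh2, 2 had Myh7 with Myh4, 1 had Myh7, Myh2 and Myh4, and 1 had Myh7 with Myh1, in a myofiber (S15.2) without a usable Myh2 spot. S6.4 and S16.3 had all 4. The type 2B myofibers all had Myh4 and the low Myh7 signal described above, 6 with Myh1, 2 with Myh1 and Myh2, and 2 (E7.7 and E15.3) with neither. S16.3 combined high Myh2 (13.03) with a Myh7 level (15.82) inside the range of the other type 1 myofibers, whereas S6.4 combined high Myh2 with low Myh7. These counts use 1 flag per spot, and with the looser positive-and-significant flag 226 of the probe and myofiber pairs were detected in place of 195. Dim flagged signals were Myh4 in S7.2 (2.84) and S5.9 (4.22) and Myh2 in S5.9 (4.27), E9.5 (3.86) and E9.6 (3.99). All were on slide 1, the brightest slide. The lowest level flagged on an array ranged from 2.10 to 5.64. The Myh7 probe was flagged in every type 2B myofiber, but its neighbour LOC674761 in only 1.

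Myh3, the embryonic isoform, was above background in all 11 type 1 myofibers with both of its probes. The probe A_55_P2066440 was 7.07 at the lowest (S9.4), 9.48 at the median and 11.80 at the highest (S15.2). In type 2B myofibers the same probe was 1.70 to 4.37 and in none of the 10 well above background. The type 1 mean of 8.88 was at least 44.5-fold higher, taking for each type 2B array the higher of the probe's own signal and the lowest signal well above background. The fit gave a difference of -6.87 (SE 0.47, Bonferroni adjusted p = 2.74e-08, limma), with measured means of 8.88 ± 0.90 and 2.41 ± 1.04 (n = 6 mice each).

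The probe A_55_P2083406 of the same gene was 6.87 to 11.12 in type 1 and 1.68 to 5.82 in type 2B. It was well above background in 5 of 10 type 2B myofibers, all 4 on slide 1 and E12.5, the highest. The groups did not overlap, and the difference was -5.69 (SE 0.57, Bonferroni adjusted p = 4.66e-05, limma). Over the type 1 myofibers the 2 probes followed each other, with r = 0.82 (n = 11, myofibers that share mice and slides). With normexp background correction the differences of the 2 probes were -3.50 and -2.74 and still passed Bonferroni. With spots lacking the positive-and-significant flag set to missing, they were -6.33 and -4.34 and did not pass (adjusted p = 0.112 and 0.0543). Without mouse 3 the probe A_55_P2083406 did not pass either (-5.40, adjusted p = 0.122).

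S6.4 did not stand apart for Myh3. Its 2 values, 9.95 and 9.48, lay within the range of the other type 1 myofibers, although its Myh7, Myh7b and Myh6 were the lowest of the group. Without S6.4 the differences were -6.81 (SE 0.49) and -5.60 (SE 0.59). Myh3 also varied between slides for A_55_P2066440 (adjusted p = 0.0153 for slide within type, limma F test). Such variation was common on the array, with 5084 of the 46958 probes passing Benjamini-Hochberg adjustment in the same test. No other member probe with a value in it passed. For A_55_P2066440 the direction between the types was the same within each slide that held both. Within slides 1, 2 and 3 its differences were -6.98, -5.99 and -6.75.

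Markers of cells that can adhere to a myofiber were set beside Myh3. The 9 probes of 7 satellite cell genes summed to 2046 to 9032 in type 1 (median 4440) and 1361 to 5320 in type 2B (median 3137). Pax7, which marks satellite cells, was above background in 8 of 11 type 1 and 2 of 10 type 2B myofibers, with a difference of -1.37 (SE 0.54) that did not pass (Benjamini-Hochberg adjusted p = 0.148, limma). Myf5 was above background in none, and of the 8 satellite cell probes tested 1, a probe of Ncam1, was higher in type 1 after Bonferroni (3, all of Ncam1, after Benjamini-Hochberg adjustment). Over all probes tested the shares higher in type 1 were 0.82% and 4.09%. Cdh15 (1.12, SE 0.40) and Myod1 (0.02, SE 0.42) lay higher in type 2B, and Itga7 (-0.34, SE 0.30) and Calcr (-1.01, SE 0.42) lower. None of these passed Benjamini-Hochberg adjustment. Myod1 was above background in every myofiber, at 9.68 to 12.92 in type 1 and 9.14 to 12.06 in type 2B. The sums thus lean on bright probes such as Myod1. Of 4 connective tissue probes tested 1, of the collagen gene Col3a1, was higher in type 1 after Benjamini-Hochberg adjustment (-2.45, SE 0.48, adjusted p = 0.00144, limma) and 0 after Bonferroni. It was above background in 11 of 11 type 1 and 7 of 10 type 2B myofibers. The 5 probes of that list summed to 282 to 4755 in type 1 (median 628) and 213 to 689 in type 2B (median 428), with Pdgfra above background in 2 and 0 myofibers. The part of other cells in the Myh3 signal was not tested, and fewer cells of a type and less RNA per cell cannot be told apart.

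Myh8, the perinatal isoform, gave different answers by probe. A_51_P143296 was 14.99 to 16.10 in type 1 and 14.94 to 16.21 in type 2B, with a difference of 0.51 (SE 0.19, Benjamini-Hochberg adjusted p = 0.127, limma). A_55_P2120161 was 12.91 to 15.42 in type 1 and 15.26 to 16.06 in type 2B, and its difference of 1.36 (SE 0.27) passed Benjamini-Hochberg adjustment (p = 0.00153, limma; 0.0585 with mouse as a fixed block) but not Bonferroni. A_55_P2120169 was 2.39 to 4.10 in type 1 and 2.38 to 6.76 in type 2B, above background in 3 and 2 myofibers. A_51_P239800 was 1.77 to 3.18 and 1.86 to 3.16 and above background in none. So 2 of the 4 Myh8 probes were above background in every usable spot, and the other two in 5 and 0 of 21 myofibers.

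The sequences of the bright Myh8 probes are shown because the study's primers bear on them. Capitals mark 16 bases at the start of A_51_P143296 that are also in the site of the study's reverse primer for Myh2. The reverse primer for Myh1 shared 15 of these bases.
Myh8 A_51_P143296: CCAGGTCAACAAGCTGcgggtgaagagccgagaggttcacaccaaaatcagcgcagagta
Myh8 A_55_P2120161: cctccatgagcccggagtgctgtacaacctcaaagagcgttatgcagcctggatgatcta
Myh3 A_55_P2083406: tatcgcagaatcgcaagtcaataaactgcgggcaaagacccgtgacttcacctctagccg
The Myh3 probe A_55_P2083406 matched A_51_P143296 at 29 of 48 aligned bases (60.4%), and the Myh13 probe at 28 of 43 (65.1%), the highest identity between probes of different members. The longest run that probes of different members shared was 10 bases, between Myh1 and Myh4. Probes were compared only with each other, because no transcript sequences were at hand. Their identity therefore does not say whether a probe matches RNA of another member. Whether the bright Myh8 probes, or the probes of the other members, also bound RNA of other myosin genes was not tested.

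Myh13, the extraocular isoform, was 2.69 to 5.02 in type 1 and 3.07 to 5.32 in type 2B, above background in 4 of 11 and 3 of 10 myofibers. Of these 7, 6 were on slide 1. The difference was 0.06 (SE 0.28, Benjamini-Hochberg adjusted p = 0.949, limma), so neither level nor difference could be read at this brightness. Myh15, a further ancient isoform that was not among the 9 genes, was 3.29 to 8.20 in type 1 and 2.54 to 6.68 in type 2B, with a difference of -1.43 (SE 0.58) that did not pass (Benjamini-Hochberg adjusted p = 0.163).

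Slides served as a check on the differences, since slides 1, 2 and 3 each held both types. Within the 3 slides Myh4 differed by 10.09, 12.93 and 13.64, Myh7 by -6.88, -9.08 and -8.71, and Myh7b by -5.79, -8.36 and -8.33. S6.4 lay on slide 1, where these values were closest to 0. Myh1 differed by 6.32, 8.54 and 5.34 and Myh2 by -2.85, -6.67 and -4.76. For the 10 member probes past Benjamini-Hochberg adjustment, direction was the same within each slide as over all myofibers, while Myh13 and Myh8 A_55_P2120169 had the other sign in 2 and 3 of the 3 slides. With mouse as a fixed block 4 member probes passed Bonferroni in place of 7, and those lost were Myh7b and both probes of Myh6 (adjusted p = 0.0661, 1.0 and 0.0994 for Myh7b, A_55_P2173952 and A_55_P2140453).

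**Figure D3:**
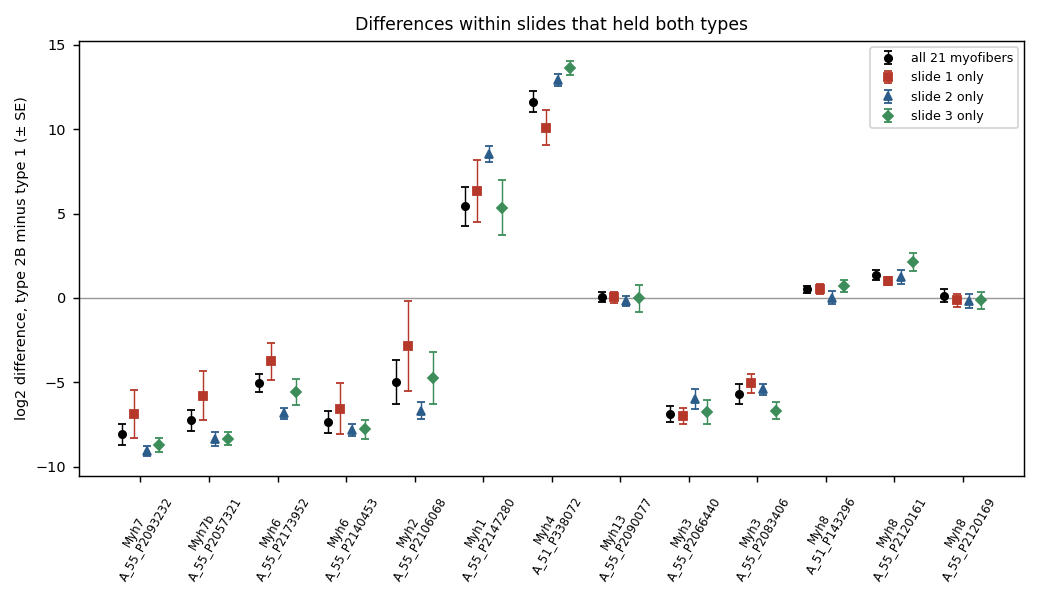
Difference in log2 signal, type 2B minus type 1 (vertical axis, ± SE), of each tested probe over all 21 myofibers and within each slide that held both types. Myh4 and Myh1 lay above 0 and Myh7, Myh7b, Myh6, Myh2 and Myh3 lay below 0 in each of the 3 slides.

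Co-expression was examined within each type over the brightest probe of each gene, for 15 gene pairs in type 1 and 15 in type 2B. For Myh8 that was A_51_P143296. Its r with the other bright Myh8 probe, A_55_P2120161, was 0.39 in type 1, S6.4 included, and 0.73 in type 2B (n = 10 each). Whether it also bound RNA of other myosin genes was not tested, so pairs with Myh8 are pairs with this probe. The same holds for the probes of the other members. Myofibers of the same mouse or slide were treated as separate and exchangeable, which they are not, so the p-values do not hold for animals. In type 1, S6.4 lay far from the rest, and pairs are given without it first. Myh7 and Myh7b then had r = 0.78 and rho = 0.81 (n = 10, permutation p = 0.0121 and 0.00714, adjusted 0.0821 and 0.0535), with r = 0.62 after leaving out the 2 most distant myofibers. With S6.4 r was 0.995 and rho 0.855 (n = 11). Myh7b and Myh8 had r = 0.85 and rho = 0.82 (n = 9, permutation p = 0.00153 and 0.0112, adjusted 0.0229 and 0.0639), with r = 0.78 without the 2 most distant myofibers. With S6.4 this pair had r = -0.70 and rho = 0.32 (n = 10), so 1 myofiber turned the sign of r. Myh7 and Myh8 behaved alike, with r = 0.76 and rho = 0.80 without S6.4 (n = 9, permutation p = 0.0137 and 0.0140, adjusted 0.0821 and 0.0639). With S6.4 Myh7 and Myh8 had r = -0.73 and rho = 0.31 (n = 10). Myh2 was paired with Myh7, Myh7b, Myh6, Myh3 and Myh8, and without S6.4 r lay between -0.16 and 0.33. With S6.4 it lay between -0.63 and 0.45. The values without S6.4 moved with the setting, with Myh2 and Myh8 at -0.53 after 75th percentile scaling and Myh2 and Myh7 at 0.63 without the 2 most distant myofibers.

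In type 2B, Myh4 and Myh8 (A_51_P143296) had r = 0.95 and rho = 0.81 (n = 10, permutation p = 0.00105 and 0.00698, adjusted 0.0158 and 0.0523). Without E11.9 and E13.3 r was 0.48, so on the quantile scale the relation rested on these 2 myofibers. With 75th percentile scaling r was 0.98, and 0.93 without them. Myh1 and Myh8 ran opposite by rank (rho = -0.87, permutation p = 0.00208, adjusted 0.0208) but not by r (-0.40, permutation p = 0.213, adjusted 0.313). Myh1 and Myh4 had r = -0.44 and rho = -0.76 (permutation p = 0.183 and 0.0149, adjusted 0.305 and 0.0895). Myh7 and Myh8 had rho = 0.89 (adjusted permutation p = 0.0208) and r = 0.65 (adjusted permutation p = 0.110). With 75th percentile scaling no rank correlation passed the adjustment, and the relation of Myh1 and Myh8 by rank was -0.72 (adjusted permutation p = 0.176).

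**Figure D4:**
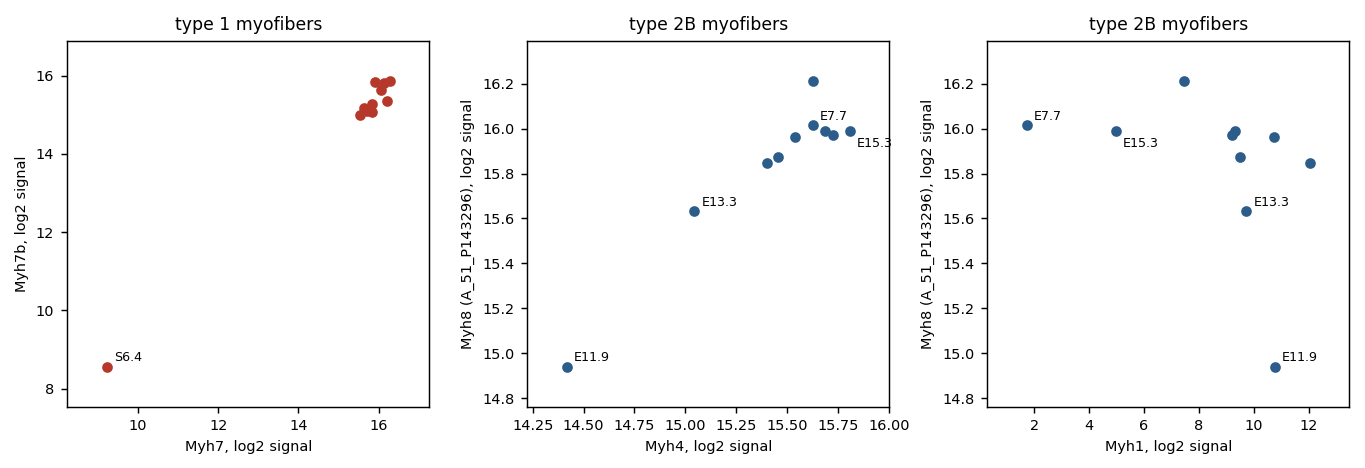
Log2 signal of Myh7b against Myh7 in type 1 myofibers (left), and of Myh8 A_51_P143296 against Myh4 (centre) and Myh1 (right) in type 2B myofibers, with 1 point per myofiber. S6.4 lies apart from the other 10 type 1 myofibers, and E11.9 and E13.3 carry much of the span of Myh4 and Myh8.

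The genes whose deviations from the type mean were most like those of each member were ranked over 20 or 21 myofibers among 17253 to 17256 probes named in RefSeq. The values printed are the highest of that many, over myofibers that share mice and slides. They are a description, and none was tested. Those of Myh7 were Tnnc1 (r = 0.97), Tnni1 (r = 0.96) and Myh7b (r = 0.95), slow troponins and the ancient myosin. Those of Myh7b were Tnni1 (r = 0.97), Tnnc1 (r = 0.96) and Myh7, and those of Myh6 were Myh7 (r = 0.92), Tnni1 (r = 0.91) and Myh7b (r = 0.91). These values rested on S6.4. Without it, an alternative chosen after seeing the data, the 9 values of Myh7, Myh7b and Myh6 were 0.24 to 0.59. Myh4 was most like Pvalb (r = 0.84), a calcium buffer of fast myofibers, Dusp22 (r = 0.76) and Nefm (r = 0.75). Myh2 was most like Mustn1 (r = 0.83), Tstd2 (r = 0.81) and Myoz3 (r = 0.80), and Myh1 most like Wfs1 (r = 0.77), Tead4 (r = 0.76) and Amhr2 (r = 0.75). Myh3 was most like Olfr372 (r = 0.89), Gm4117 (r = 0.81) and Hydin (r = 0.78). Myh8 was most like Gm16470 (r = 0.83), Elk1 (r = 0.83) and Apol7c (r = 0.80). Without S6.4 the values of Myh1, Myh2, Myh3, Myh4 and Myh8 lay between 0.62 and 0.91.

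Partners of myosin were counted by lists. Over all probes tested 0.611% were higher in type 2B and 0.82% in type 1 after Bonferroni, and the median difference was 0.03. Of 21 tested probes of thick filament partners 2 were higher in type 2B and 3 in type 1 after Bonferroni, with a list median of 0.01. Mybpc2, fast myosin binding protein C, differed by 11.81 (SE 0.33) and Myom2, an M-band protein, by 8.57 (SE 0.91). Lmod2, a thin filament length regulator, differed by -8.28 (SE 0.39) and Myom3 by -7.52 (SE 0.29). In S6.4 Myom2 was 13.04, the highest of the type 1 values, beside a type 1 median of 4.75. Of 19 probes for myosin folding and turnover 2 were higher in type 1, both of the chaperone Cryab (-2.13 and -1.51), and the list median was 0.08.

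Of 48 probes for regulators of isoform choice 3 were higher in type 2B and 3 in type 1 after Bonferroni, with a list median of -0.27. Over all probes the shares were 0.611% and 0.82% and the median 0.03. The nuclear receptors Esrrg (-7.07, SE 0.73, and -7.00, SE 0.78, by its 2 probes) and Esrrb (-5.74, SE 0.31) were higher in type 1. The other Esrrb probe, A_52_P628212, did not pass (-1.07, SE 0.41, Benjamini-Hochberg adjusted p = 0.129, limma). Sox6, a repressor of slow genes, was 3.26 to 8.68 in type 1 and 9.20 to 11.91 in type 2B, a difference of 4.55 (SE 0.47), and S6.4 held the highest type 1 value. Mstn (myostatin) was above background in no type 1 myofiber and in 8 of 10 type 2B myofibers, and was at least 9.45-fold higher in type 2B (means 6.71 and 2.68, Bonferroni adjusted p = 0.00938, limma). The long non-coding RNA 2310065F04Rik (linc-Myh), which lies between Myh3 and Myh2, was 6.21 to 8.16 in type 1 and 9.64 to 11.47 in type 2B, with a difference of 3.17 (SE 0.30).

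Developmental and regeneration genes were higher in type 1 for 8 of 28 tested probes and higher in type 2B for 0 after Bonferroni (12 and 0 after Benjamini-Hochberg adjustment), with a list median of -1.48. For this and the next lists, the shares over all probes were 0.82% and 0.611% (4.09% and 3.48% after Benjamini-Hochberg adjustment), with a median of 0.03. The 8 developmental probes were 6 probes of the imprinted RNA H19 (-3.04 to -2.51), Tnni1, which is also the slow troponin I (-7.72, SE 0.66), and 1 probe of Ncam1 (-2.48, SE 0.36). The remaining H19 probe, A_55_P1961125, did not pass (-0.79, SE 0.37, Benjamini-Hochberg adjusted p = 0.247, limma). Of 8 tested cardiac probes 2 were higher in type 1 and 0 in type 2B (3 and 0 after Benjamini-Hochberg adjustment), with a list median of -0.18. Sln (sarcolipin) was 12.08 to 13.91 in type 1 and above background in no type 2B myofiber, at least 990-fold higher in type 1 (means 13.32 and 1.77, Bonferroni adjusted p = 4.91e-20, limma). Myl7, the atrial light chain, differed by -3.20 (SE 0.41). Of 8 probes of other myosin heavy chains 1 passed, a probe of the non-muscle gene Myh10 that was 7.43 to 10.66 in type 1 and 2.60 to 6.26 in type 2B (difference -4.08, SE 0.45), and the list median was -0.69.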

How the data were processed

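The authors isolated single myofibers with collagenase, typed them by the myosin protein on gels, amplified the RNA of each (TransPlex WTA2) and hybridized it in 1 colour to Agilent SurePrint G3 mouse arrays. The deposited scanner files hold processed spot intensity, made with Agilent Feature Extraction 10.7.3.1 per the labels, in scanner units after background subtraction. A deposited value table of long non-coding probes, given as intensity, held 0 member probes and was used only to check labels. Intensity files give no counts, so the number of arrays limits the precision.

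Quantile normalization was used as in the methods, on 59305 non-control spots per array, then spots of 1 probe were averaged and log2 taken. Unlike the authors, who set spots without the positive-and-significant flag missing, only outlier spots were set missing, and the authors' rule was an alternative. The filter kept 46958 of 55681 probes, those flagged positive and significant on 50% or more of the arrays of either type. limma 3.58.1 (R 4.3.3) was fitted with mouse as a random block (consensus correlation -0.02), with Bonferroni and Benjamini-Hochberg adjustment over all probes at 0.05. Mouse means were compared by an exact permutation test and pairs by 100000 resamples (scipy 1.17.1). The test of mouse means did not pair the 3 mice that gave both types. The fit was tested on simulated data. Myofibers of 1 mouse are separate samples but not separate animals.

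The 9 genes and all lists were chosen with earlier results of these data known. Text names every member probe, at most 4 genes of each list past Bonferroni, and the 3 genes most like each member with a probe above background in 11 or more myofibers. Neighbouring probes (LOC674761, D830015G02Rik, Trpc4ap, 2310065F04Rik), Myh15, Pax7, Myf5, Myod1, Cdh15, Itga7, Calcr, Col3a1 and Pdgfra were named after their values were seen. So were Myl3, Pvalb, Actn3 and Tnnt3 for S6.4. Promoters and microRNAs are from RefSeq, and all 9 symbols matched. Alternatives were scaling, background, filter, block, slide, pairing by replicate number, the methods' t-test, and each myofiber or mouse left out.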

Additional observations from a re-analysis of the deposited data

Results flagged for a closer look

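Among 42 sets of values (10 type 2B myofibers, or 6 mouse means of a type, for each probe) 13 held a value with an unusually wide gap to its nearest neighbour by Dixon's criterion, which chance gives in about 1 of 20 independent sets. These sets are not independent, because sets of myofibers and of mouse means reuse the same values. E11.9, for example, is the only type 2B myofiber of mouse 9. The 13 are therefore not separate results. The values are log2 signals, and none of them was given a cause.

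Mouse 4, which supplied S6.4, lay apart among the type 1 mouse means for Myh7 (12.52, nearest 15.53), Myh7b (11.92, nearest 14.98), Myh6 A_55_P2140453 (10.51, nearest 12.90) and Myh1 (5.60, nearest 3.1). Mouse 2 was high for Myh3 A_55_P2083406 (10.32, nearest 8.18).

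Among type 2B mouse means, mouse 7 was low for Myh1 (1.72, nearest 8.39). Mouse 9, represented by E11.9, was low for Myh4 (14.42, nearest 15.46), Myh8 A_51_P143296 (14.94, nearest 15.86) and Myh8 A_55_P2120161 (15.26, nearest 15.69). Mouse 5 was high for Myh8 A_55_P2120169 (4.81, nearest 3.14).

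Among single type 2B myofibers E8.3 was high for Myh7b (8.68, nearest 7.79), E11.9 was low for Myh8 A_51_P143296 (14.94, nearest 15.63) and E12.5 was high for Myh8 A_55_P2120169 (6.76, nearest 3.95).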

How the results depend on the processing

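Of the 13 tested probes 7 passed Bonferroni adjustment, and 7 passed with each of the 21 myofibers left out in turn (lowest 7, highest 7). The count was 4 with mouse as a fixed block and 4 without mouse 3, which supplied 7 myofibers. It was 1 within slide 1, 0 within slide 2 and 0 within slide 3, where fewer myofibers were fitted and limma gave 9, 10 and 10 member probes at an unadjusted p under 0.05 and 4, 2 and 0 by Benjamini-Hochberg adjustment. Over all probes 672 passed, against 181 with mouse as a fixed block, 354 on mouse means, 330 with the replicate block, 302 without mouse 3, 89 within slide 1 and 3552 by Benjamini-Hochberg adjustment. The methods' t-test passed 6 member probes by Bonferroni, and limma with spots lacking the positive-and-significant flag missing, as the authors had them, passed 5. The median difference of all probes was 0.11 with 75th percentile scaling and 0.19 with dim spots at the floor, against 0.03.

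Replicate numbers did not pair the samples (correlation of deviations -0.16 to 0.20 over 10 pairs). With the replicate number as a block 6 member probes passed, Myh3 A_55_P2083406 having an adjusted p of 0.0594, and the lists for folding and turnover, regulators, and developmental genes passed 0 (6 at an unadjusted p under 0.05, 4 by Benjamini-Hochberg adjustment), 2 and 5 probes. With slide as a block the lists for other myosin heavy chains, folding and turnover, and developmental genes passed 0 (2 unadjusted, 2 by Benjamini-Hochberg adjustment), 1 and 5 probes, against 1, 2 and 8. With 75th percentile scaling folding and turnover passed 1. With Benjamini-Hochberg adjustment other myosin heavy chains passed 2, folding and turnover 4 and regulators 14.

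The sign changed for 2 probes near background. Myh13 (0.06) was -0.0887 with spots lacking the positive-and-significant flag missing, -0.0672 with mouse as a fixed block, -0.0307 with slide as a block, -0.20 within slide 2, -0.00604 within slide 3, -0.0889 without mouse 7, -0.0424 without mouse 9 and -0.0889 to 0.17 with single myofibers left out. Myh8 A_55_P2120169 (0.13) was -0.32 with mouse as a fixed block, -0.15 with slide as a block, -0.14, -0.18 and -0.14 within slides 1, 2 and 3, -0.24 without mouse 5 and -0.25 to 0.24 with single myofibers left out. The cause was not tested.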
